A study of Caenorhabditis elegans with 79 samples.

Results

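miR-1-3p, miR-124-3p and miR-228-5p are 3 Caenorhabditis elegans microRNAs (miRNAs) known for different tissues: muscle, neurons and glia. They were taken by name from the miRNA class of the 6 deposited tables that hold many small RNA classes, and they are 3 of the 439 miRNA rows in each of these tables. Each name matched 1 row in every table. The 6 tables hold 59 of the 79 libraries of the series, in 21 groups.

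A miRNA is cut by the nuclease Dicer (DCR-1) from a hairpin precursor and then held by an Argonaute protein, which it guides to complementary sites in mRNAs. ALG-1 is one of the main miRNA Argonautes of C. elegans. RDE-1 is the Argonaute that takes up primary siRNAs made from double-stranded RNA during RNA interference (RNAi), and RDE-4 is the double-stranded RNA-binding partner of Dicer in that pathway. miR-1 is expressed in body wall and pharyngeal muscle and is conserved from worms to mammals. miR-124 is likewise conserved and marks neurons, in C. elegans chiefly ciliated sensory neurons. miR-228 is expressed in glia, and its promoter is used to drive transgenes there. By the WBcel235 annotation the mir-1 hairpin lies on chromosome I and the other 2 lie on chromosome IV. The mir-124 hairpin sits in an intron of trpa-1, a protein-coding gene of an ion channel, on the same strand, and it also overlaps the non-coding RNA C29E6.8 on the other strand. The mir-1 hairpin overlaps the non-coding RNA T09B4.14 on the other strand, and no gene other than mir-228 itself overlaps the mir-228 hairpin.

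All libraries came from whole animals grown at 20 °C. The L4 larvae were 54 h old and untreated, in the wild-type strain N2 and in rde-4(syb6665), with 3 libraries each. The untagged adults were 72 h old, gravid and fed RNAi food against both nrfl-1 and oma-1, in N2, rde-1(ne300) and rde-4(syb6665), again with 3 libraries each. For RDE-1, gravid adults carried rde-1(cmp133[(GFP::3xFLAG)::rde-1]) with wild-type rde-4 or with rde-4(syb6665). The labels do not assign these and the other tagged adults a single age. They were fed either nrfl-1 RNAi (3 libraries a group) or nrfl-1 and oma-1 RNAi together (2 libraries a group). For ALG-1, gravid adults carried unc-119(ed3) and the transgene ram4, which holds Cbr-unc-119(+) and alg-1 tagged with 3XHA and TEV, with wild-type rde-4 or rde-4(syb6665), all on nrfl-1 RNAi, with 3 libraries a group. In a last set, a strain with rde-4(cmp320[rde-4::2xFLAG]) and GFP-tagged rde-1 was fed the empty vector L4440 or dcr-1 RNAi, with 3 libraries a group. Each tagged strain gave lysate libraries (inputs) and libraries of RNA co-immunoprecipitated with the Argonaute (co-IPs). No co-IP from an untagged strain is among these tables, so a co-IP is read only against its own input.

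The library preparations differed. The L4, untagged adult and double RNAi libraries were made from 16 to 30 nt RNA treated with RppH, an enzyme that lets triphosphorylated 22G-RNAs be cloned along with miRNAs. The nrfl-1 RNAi libraries of both Argonautes were made from gel-purified RNA of the same size without it. The L4440 and dcr-1 RNAi libraries skipped that size selection, and the labels name a pair of kits for them without saying which was used. Levels are the authors' reads per 1000000 (RPM), a unit read from the values; which reads the total counts is not given in the sources used here. miRNAs took 56.2% to 58.2% of the summed RPM in L4 larvae, 30.5% to 34.8% in the untagged adults and 90.7% to 99.5% in the ALG-1 set. Depth, read from the step between low piRNA values, was 12300000 to 37300000 reads in the 58 libraries where a step was found, so that the 3 reads taken as a floor correspond to at most 0.243 RPM. As a check of stage, the summed level of miR-35-3p to miR-42-3p, 8 miRNAs known from embryos, was 1283 to 1421 RPM in L4 N2 and 28700 to 30915 RPM in the gravid N2 adults. As a check of the RNAi labels, primary siRNAs to dcr-1 were at 1529 to 1729 RPM in the dcr-1 RNAi inputs and at 2.85 to 3.91 RPM in the L4440 inputs. The mRNAs of rde-1 and rde-4 are not measured in these tables. In such bulk libraries, fewer cells of a type and less RNA per cell cannot be told apart.

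The 3 miRNAs spanned more than 3 orders of magnitude in N2 lysates. In L4 larvae, miR-1-3p was at 16292, 18560 and 16128 RPM and ranked 8th or 9th among the 439 miRNA rows. miR-228-5p was at 8913, 8248 and 7990 RPM, and miR-124-3p was at 3.20, 3.82 and 3.57 RPM, which is 60, 76 and 78 reads at the inferred depth. In every L4 and adult library of the untagged strains the order was miR-1-3p, miR-228-5p, miR-124-3p, and the ranges of the 3 did not overlap. In L4 N2 the level of miR-1-3p was 1.83 to 2.25 times that of miR-228-5p.

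In gravid N2 adults, miR-1-3p was at 7006, 7291 and 6048 RPM, miR-228-5p at 1678, 1536 and 1555 RPM and miR-124-3p at 2.00, 1.61 and 1.10 RPM. L4 larvae and adults stand in separate tables and differ in age, food and RNAi, so these levels are set side by side without a test. The mean level was 2.51 times lower in adults for miR-1-3p (16993 ± 1359 against 6782 ± 651 RPM; SD, n = 3 each) and 5.27 times lower for miR-228-5p (8384 ± 476 against 1589 ± 77.3 RPM). Over the 137 miRNAs with a mean of at least 10 RPM at either stage, the median log2 difference was -1.48. The log2 difference of miR-228-5p, -2.40, was the 6th lowest of them, while that of miR-1-3p, -1.33, was close to the median. As a share of all miRNA RPM, miR-1-3p was 4.32% ± 0.271 in L4 N2 and 3.34% ± 0.315 in adult N2, and miR-228-5p was 2.13% ± 0.134 and 0.782% ± 0.0317 (SD, n = 3).

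**Figure D1:**
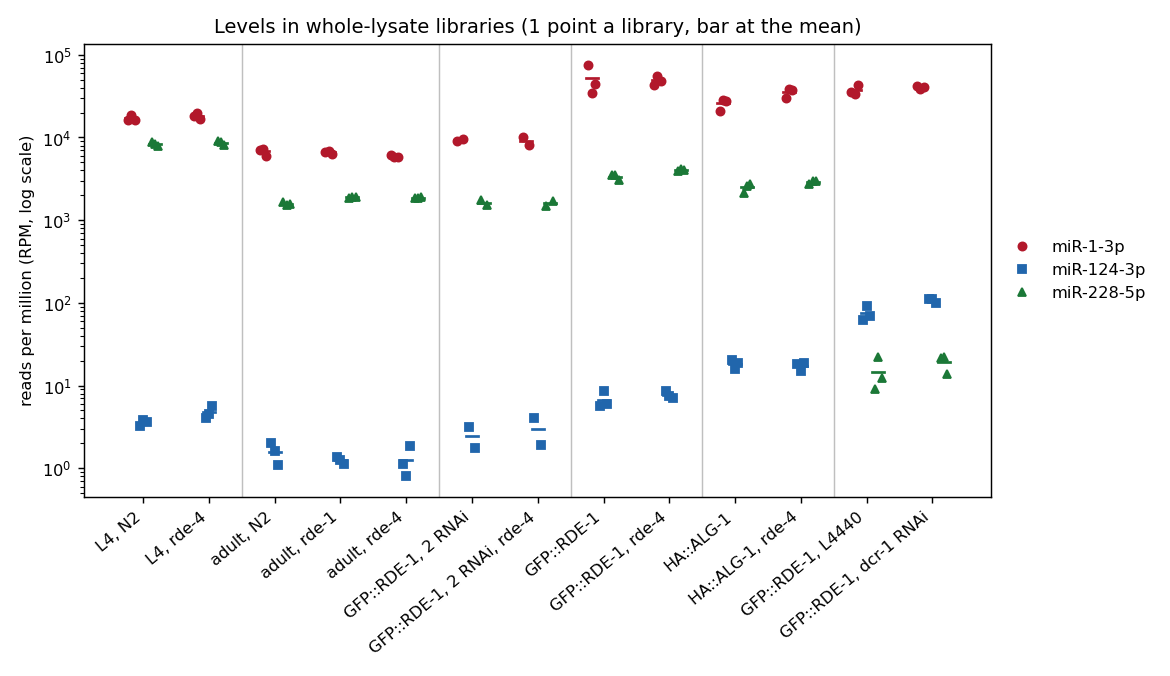
Level of each miRNA in the lysate libraries of 13 groups, in RPM on a log scale, with 1 point a library and a bar at the group mean; vertical lines separate the tables, and "2 RNAi" stands for nrfl-1 and oma-1 RNAi. miR-1-3p lies highest throughout, and miR-228-5p lies above miR-124-3p except in the 2 groups at the right, where it is at 8.96 to 22.0 RPM.

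Differences between strains were small. Differences were fitted with limma on log2(RPM + 1) and called at a Benjamini-Hochberg adjusted p under 0.05 over all tested rows of a table. In L4 larvae, rde-4(syb6665) had miR-1-3p at 17974, 19760 and 16810 RPM and miR-228-5p at 9029, 8755 and 8126 RPM. Both ranges overlapped those of N2. The log2 differences were 0.10 ± 0.07 for miR-1-3p (SE, limma adjusted p = 0.295) and 0.04 ± 0.06 for miR-228-5p (adjusted p = 0.558). Of the 4482 rows tested at this stage, 34.6% were called, and of its miRNA rows 29.5%. miR-124-3p was at 4.03, 4.58 and 5.66 RPM in the mutant, above every N2 library, but it fell under the filter of a mean of 10 RPM and was not tested there.

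In adults, miR-228-5p was higher in both mutants. It was at 1875, 1902 and 1902 RPM in rde-1(ne300) and at 1832, 1874 and 1882 RPM in rde-4(syb6665), and every mutant library lay above every N2 library. The log2 differences from N2 were 0.25 ± 0.04 in rde-1 (limma adjusted p = 0.000809) and 0.23 ± 0.04 in rde-4 (adjusted p = 0.00136). These comparisons share the N2 libraries. They called 15.5% and 34.1% of the 5450 rows, and 19.4% and 44.4% of the miRNA rows. The mutants differed from each other by -0.02 ± 0.04 (rde-4 minus rde-1, adjusted p = 0.649), in a comparison that called 30.5% of rows and 38.9% of miRNA rows. The sign of this last difference turned when libraries were scaled to equal miRNA totals.

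miR-1-3p was at 6128, 5730 and 5830 RPM in rde-4 adults and at 6760, 6890 and 6251 RPM in rde-1 adults. The rde-4 range lay under that of rde-1 and overlapped that of N2. Its log2 difference from N2 was -0.20 ± 0.07 in rde-4 (limma adjusted p = 0.0463) and -0.03 ± 0.07 in rde-1 (adjusted p = 0.834). The rde-4 call was narrow: it was lost without the filter (adjusted p = 0.19) and with scaling to equal miRNA totals (adjusted p = 0.109). It was also lost without N2 replicate 1 or 2 (-0.17 and -0.14, adjusted p = 0.13 and 0.148) and without rde-4 replicate 1, 2 or 3 (-0.23, -0.18 and -0.19, adjusted p = 0.0526, 0.117 and 0.112). miR-124-3p, at 0.80 to 1.86 RPM over the 6 mutant libraries, again fell under the filter, and its range overlapped that of N2. Markers of embryos moved with these strains. The summed level of the 8 embryo miRNAs was 13838 to 14440 RPM in rde-4 adults against 28700 to 30915 RPM in N2, and 8 of 8 fell, beside 29.6% of all miRNA rows. In rde-1 adults their sum was 26057 to 26962 RPM and 2 of 8 fell, beside 6.48% of miRNA rows. The part of embryo content in the differences of miR-1-3p and miR-228-5p was not tested.

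**Figure D2:**
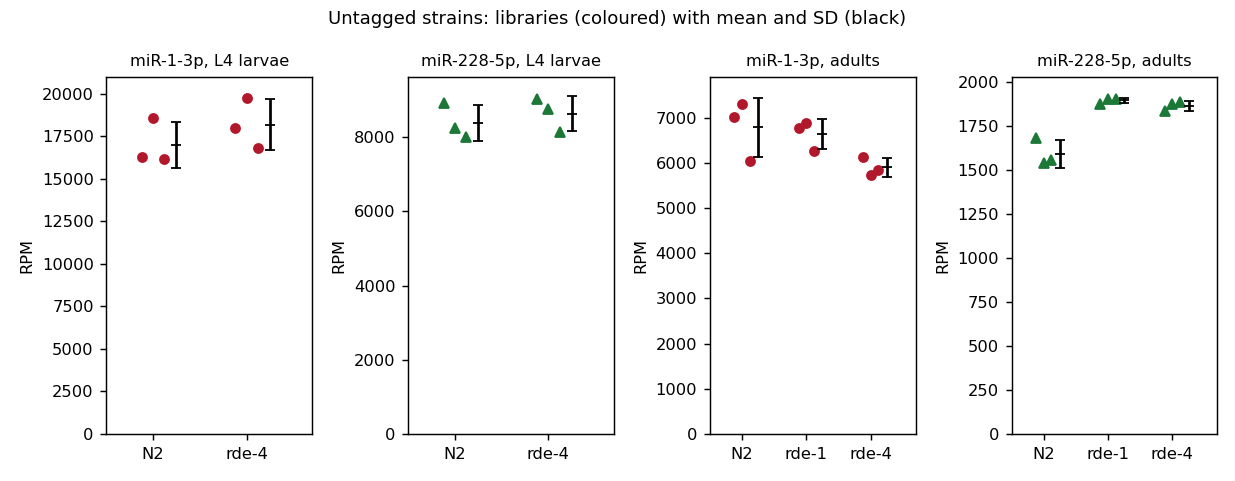
RPM of miR-1-3p and miR-228-5p in each library of the untagged strains, on linear axes from 0, with the mean and SD of the 3 libraries beside them. In adults the miR-228-5p points of both mutants lie above the N2 points, which end at 1678 RPM, and the other panels show overlap with N2.

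The tagged strains gave further pairs of inputs with and without rde-4. In the GFP::RDE-1 strain on nrfl-1 RNAi, miR-228-5p was at 3534, 3475 and 3056 RPM with wild-type rde-4 and at 3974, 4198 and 4075 RPM with rde-4(syb6665). These ranges did not overlap, but the log2 difference of 0.29 ± 0.29 was not called (limma adjusted p = 0.797), in a comparison that called 4.35% of 483 rows and 3.33% of miRNA rows. In the HA::ALG-1 strain it was at 2106, 2614 and 2772 RPM and at 2732, 3003 and 2960 RPM in the mutant (log2 difference 0.22 ± 0.16, adjusted p = 0.36, with 4.56% of 658 rows and 5.41% of miRNA rows called). The double RNAi inputs gave -0.01 ± 0.26 (adjusted p = 1, with 4.87% of 4372 rows and 2.90% of miRNA rows called). For miR-1-3p the 3 differences were 0.00 ± 0.45, 0.46 ± 0.26 and -0.04 ± 0.32, and none was called, although the ranges of the HA::ALG-1 inputs did not overlap. miR-124-3p passed the filter in the HA::ALG-1 set, where the inputs differed by -0.07 ± 0.25 (adjusted p = 0.838).

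On nrfl-1 RNAi, RDE-1 co-IPs held less miR-1-3p than their inputs and more miR-228-5p. In animals wild type for rde-4, miR-1-3p was at 76245, 34909 and 44416 RPM in the inputs and at 15937, 8751 and 10155 RPM in the co-IPs, and the ranges did not overlap. This was a log2 change of -2.13 ± 0.45 (limma adjusted p = 0.000781), where 81.2% of 483 rows and 74.0% of the 150 tested miRNA rows were called. The median change of these miRNAs was -0.58. miR-228-5p went the other way, from 3534, 3475 and 3056 RPM to 8129, 4718 and 4450 RPM (0.73 ± 0.29, adjusted p = 0.0361). Its ranges did not overlap either, but the call was lost without the filter (adjusted p = 0.0555). It was also lost without co-IP replicate 1 (0.45, adjusted p = 0.172) and without input replicate 1, 2 or 3 (0.77, 0.76 and 0.66, adjusted p = 0.0572, 0.0657 and 0.0988). The ratio of miR-1-3p to miR-228-5p was accordingly 10.0 to 21.6 in these inputs and 1.85 to 2.28 in the co-IPs. miR-124-3p was at 5.70, 8.61 and 5.94 RPM in the inputs and at 1.27, 5.28 and 6.99 RPM in the co-IPs, with overlapping ranges and under the filter.

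The same directions were present in rde-4(syb6665), where miR-1-3p was at 43627, 55178 and 48856 RPM in the inputs and at 30109, 7087 and 22507 RPM in the co-IPs (-1.54 ± 0.45, limma adjusted p = 0.00804). miR-228-5p was at 3974, 4198 and 4075 RPM in the inputs and at 11551, 4928 and 7504 RPM in the co-IPs (0.88 ± 0.29, adjusted p = 0.0157). Neither pair of ranges overlapped. Without co-IP replicate 2 the change of miR-1-3p was -0.91 and still called, and without co-IP replicate 1 that of miR-228-5p was 0.58 (adjusted p = 0.0755). In this comparison 73.7% of rows and 70.7% of miRNA rows were called. The change from input to co-IP did not differ detectably between the strains: the difference was 0.59 ± 0.64 for miR-1-3p and 0.16 ± 0.42 for miR-228-5p (adjusted p = 0.983 for both), where 14.9% of rows and 9.33% of miRNA rows were called. Leaving out mutant co-IP replicate 2 or 1 gave miR-1-3p a difference of 1.22 or 0.17, neither of them called. For comparison, miR-243-3p, a miRNA known to be loaded into RDE-1, changed by 6.91 ± 0.29 in wild type and 0.47 ± 0.29 in the mutant, and the difference of -6.44 ± 0.40 was called (adjusted p = 2e-08).

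With RppH treatment and RNAi against both targets, miRNAs made up 29.3% to 34.3% of the inputs and 63.7% to 85.6% of the co-IPs, and most miRNAs rose in RPM: 79.0% of miRNA rows were called higher with wild-type rde-4 and 81.2% in the mutant. The median log2 change of the 138 tested miRNAs was 1.23 with wild-type rde-4 and 1.66 in the mutant, and 99.1% and 95.4% of all 4372 rows were called, with 89.1% and 89.9% of miRNA rows. miR-1-3p was at 8964 and 9685 RPM in the wild-type inputs and at 19490 and 10439 RPM in the co-IPs (0.61 ± 0.32, limma adjusted p = 0.0635). Without co-IP replicate 2, which leaves 1 library in that group, miR-1-3p changed by 1.06. In the mutant it was at 10174 and 8066 RPM in the inputs and at 20167 and 18441 RPM in the co-IPs (1.09 ± 0.32, adjusted p = 0.00187, or 0.0572 with no filter). In both strains its change lay below that of the median miRNA, at rank 110 and 105 of 138. Scaled to equal miRNA totals its change was -0.92 ± 0.25 (adjusted p = 0.000216) and -0.78 ± 0.25 (adjusted p = 0.00188), the direction seen on nrfl-1 RNAi alone.

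miR-228-5p was at 1731 and 1522 RPM in the wild-type double RNAi inputs and at 3338 and 3159 RPM in the co-IPs (1.0 ± 0.26, limma adjusted p = 0.000432), a call that was lost with scaling to equal totals (0.56, adjusted p = 0.0524). In the mutant it rose from 1504 and 1719 RPM to 5051 and 7027 RPM (1.89 ± 0.26, adjusted p = 5.98e-07). Scaled to equal miRNA totals these changes were -0.54 ± 0.30 (adjusted p = 0.0724) and 0.02 ± 0.30 (adjusted p = 0.943), and neither was called. The strains did not differ detectably in either change, with differences of 0.48 ± 0.45 for miR-1-3p (adjusted p = 0.423) and 0.89 ± 0.36 for miR-228-5p (adjusted p = 0.292), where 3.29% of rows and 18.8% of miRNA rows were called. The difference for miR-1-3p was 0.025 without wild-type co-IP replicate 2 and 0.93 without wild-type co-IP replicate 1, and neither was called. The difference for miR-228-5p was called when either mutant co-IP was left out (1.13 without replicate 1 and 0.65 without replicate 2, adjusted p = 0.0454 and 0.0308). miR-124-3p was at 3.18 and 1.73 RPM in the wild-type inputs and 11.7 and 6.20 RPM in the co-IPs, and at 4.09 and 1.93 RPM against 4.45 and 9.25 RPM in the mutant. Its co-IP ranges lay above the input ranges, but it was under the filter, and with equal miRNA totals its untested log2 changes were 0.27 in wild type and -0.57 in the mutant.

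ALG-1 co-IPs were lower in miR-124-3p and, with wild-type rde-4, higher in miR-228-5p. With wild-type rde-4, miR-124-3p was at 20.1, 16.0 and 18.6 RPM in the inputs and at 11.5, 7.91 and 8.95 RPM in the co-IPs (-0.89 ± 0.25, limma adjusted p = 0.00209). In rde-4(syb6665) it was at 18.4, 15.1 and 18.5 RPM in the inputs and at 10.3, 5.67 and 9.05 RPM in the co-IPs (-1.01 ± 0.25, adjusted p = 0.000688). Neither pair of ranges overlapped, and both calls were kept under every alternative listed in the closing section. miR-124-3p passed the filter here through its inputs, at 15.1 to 20.1 RPM, which favours a fall. In the co-IPs it was at 5.67 to 11.5 RPM. These comparisons called 93.2% and 93.9% of 658 rows and 73.6% and 80.4% of miRNA rows, with a median miRNA change of -0.29 and -0.60.

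miR-228-5p was at 4150, 4037 and 4394 RPM in the wild-type ALG-1 co-IPs, above all 3 inputs (0.76 ± 0.16, limma adjusted p = 0.000115). In the mutant the co-IPs were at 3827, 2716 and 3862 RPM and overlapped the inputs (0.24 ± 0.16, adjusted p = 0.151). This second change was called as well with scaling to equal totals (0.46, adjusted p = 0.000601) or to equal miRNA totals (0.34, adjusted p = 0.00614). It was also called without co-IP replicate 2 (0.41, adjusted p = 0.0111). miR-1-3p was at 21056, 28277 and 28013 RPM in the wild-type inputs and spread from 17622 over 27095 to 44688 RPM in the co-IPs (0.12 ± 0.26, adjusted p = 0.667). This small change turned to -0.08 with scaling to equal totals and to -0.17 with scaling to equal miRNA totals. In the mutant miR-1-3p was at 29898, 38874 and 37490 RPM in the inputs and lower, at 26054, 12178 and 18054 RPM, in the co-IPs (-0.98 ± 0.26, adjusted p = 0.00134). The difference between the strains was -1.09 ± 0.37 for miR-1-3p, the lowest of the 148 tested miRNAs, yet it was not called (adjusted p = 0.203; without wild-type co-IP replicate 1, -1.42 and 0.0413). For miR-228-5p it was -0.51 ± 0.23 (adjusted p = 0.392) and for miR-124-3p -0.12 ± 0.36 (adjusted p = 0.997). Of all 658 rows 0.152% were called in that comparison, and of miRNA rows 0%. The median strain difference of the tested miRNA rows was itself -0.30. Scaling moved this median to 0.11 with equal totals and to 0.08 with equal miRNA totals, so the unscaled differences include that shift.

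Set side by side without a test, since the Argonautes stand in separate tables, the co-IPs of animals wild type for rde-4 differed more in miR-1-3p than in miR-228-5p. Relative to input, miR-1-3p changed by -2.13 in RDE-1 and 0.12 in ALG-1 co-IPs (log2), or by -1.94 and -0.17 after scaling to equal miRNA totals. miR-228-5p changed by 0.73 and 0.76, or by 0.91 and 0.47 after that scaling. The known RDE-1 partner miR-243-3p changed by 6.91 and 1.83. The share of miRNA RPM in the co-IPs was 1.91% ± 0.414 in RDE-1 and 3.99% ± 1.63 in ALG-1 for miR-1-3p, and 0.944% ± 0.227 and 0.567% ± 0.0271 for miR-228-5p (SD, n = 3).

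**Figure D3:**
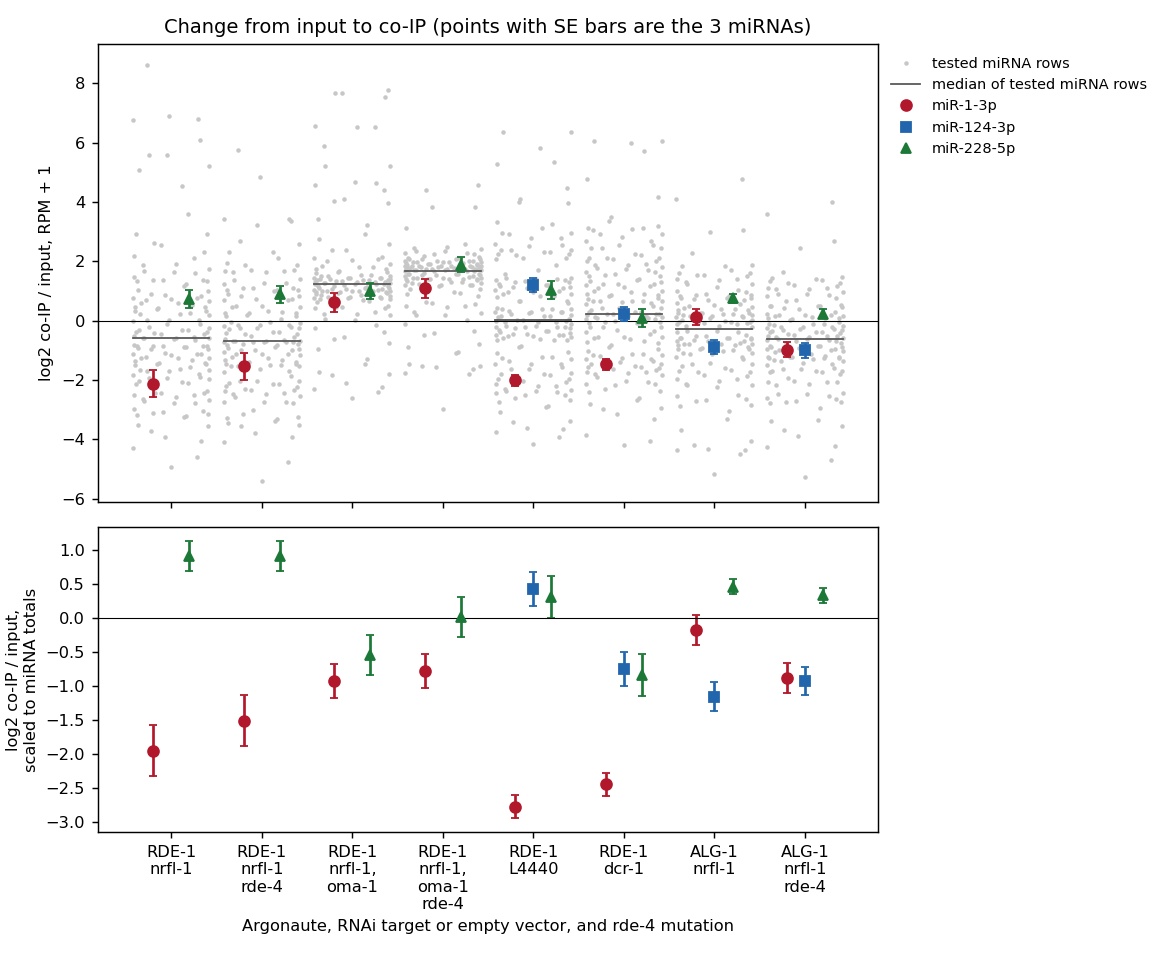
Log2 change from input to co-IP in 8 comparisons, as log2(RPM + 1) in the upper panel and after scaling to equal miRNA totals in the lower panel, with SE bars; small grey points are all tested miRNA rows and grey bars their median. miR-1-3p lies under the miRNA median in all 6 RDE-1 comparisons, where its RPM is above the input only in the 2 double RNAi ones, and miR-124-3p is drawn only where it passed the filter.

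The set fed the empty vector or dcr-1 RNAi stood apart in the levels of 2 of the 3 miRNAs. In the L4440 inputs, miR-228-5p was at 8.96, 21.9 and 12.5 RPM, and miR-124-3p was at 62.1, 92.5 and 68.5 RPM, so their order was reversed. The mean level of miR-228-5p was 232 times lower than in the inputs of GFP::RDE-1 on nrfl-1 RNAi, the lowest ratio of the 182 miRNAs with at least 10 RPM in either, and 173 times lower than in the HA::ALG-1 inputs. miR-124-3p was 11.0 times and 4.07 times higher than in those inputs. miR-1-3p, at 35247, 33469 and 43175 RPM, was within 1.45-fold of both means. Over these 182 miRNAs, 22 were at least 10 times lower and 25 at least 10 times higher (Pearson r = 0.742 of log2 values across miRNAs, which are not independent). Between the nrfl-1 RNAi inputs of the GFP::RDE-1 and HA::ALG-1 strains no miRNA differed 10-fold, and r was 0.981 over 165 miRNAs. Library preparation, strain and RNAi food differ together between these tables and cannot be told apart.

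**Figure D4:**
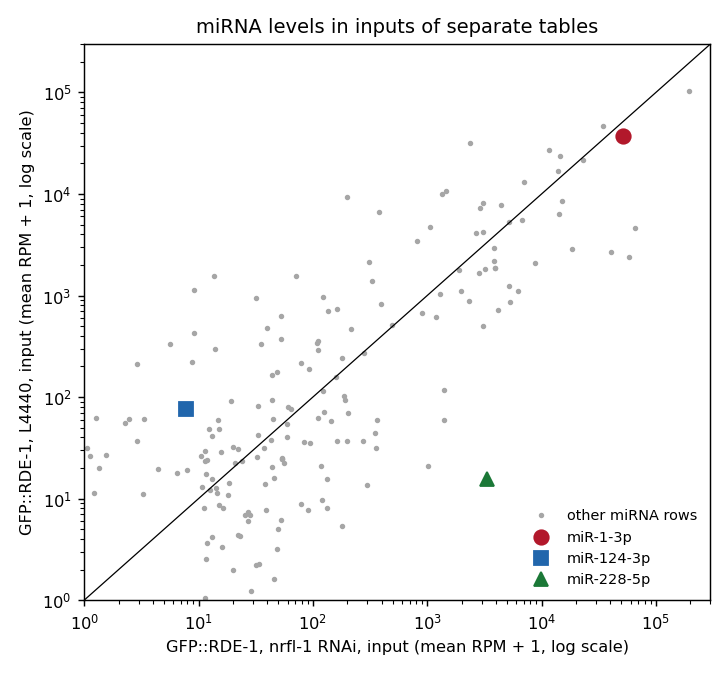
Mean level of each miRNA in the L4440 inputs against the GFP::RDE-1 inputs on nrfl-1 RNAi, as RPM + 1 on log axes, with a line of equal levels. miR-1-3p lies near the line, miR-124-3p (6.75 against 74.4 RPM) above it and miR-228-5p (3355 against 14.4 RPM) farther below it than any other miRNA.

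Within this set, miR-1-3p was again lower in RDE-1 co-IPs. On L4440 it was at 12747, 9621 and 6358 RPM in the co-IPs against 35247, 33469 and 43175 RPM in the inputs (-2.01 ± 0.18, limma adjusted p = 3.4e-12). On dcr-1 RNAi it was at 14016, 13914 and 15857 RPM against 41609, 38955 and 40519 RPM (-1.47 ± 0.18, adjusted p = 4.6e-09). Ranges did not overlap in either case, and 96.7% and 97.1% of 2516 rows were called, with 77.4% and 80.5% of miRNA rows. miR-124-3p was higher in the L4440 co-IPs, at 103, 175 and 265 RPM, all above the inputs (1.19 ± 0.24, adjusted p = 2.29e-05). On dcr-1 RNAi its co-IPs, at 111, 129 and 136 RPM, overlapped the inputs at 113, 112 and 98.2 RPM (0.21 ± 0.24, adjusted p = 0.381). miR-228-5p was at 17.3, 27.4 and 49.5 RPM in the L4440 co-IPs (1.03 ± 0.31, adjusted p = 0.00253, with overlapping ranges; without input replicate 1, 0.76 and 0.0516). It was at 22.7, 26.3 and 13.3 RPM in the dcr-1 RNAi co-IPs against inputs at 21.3, 22.0 and 13.9 RPM (0.09 ± 0.31, adjusted p = 0.772).

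miRNAs made up 67.3% to 73.9% of RPM in the L4440 inputs, 58.9% to 61.7% in the dcr-1 RNAi inputs and 92.6% to 95.5% in the co-IPs. Scaled to equal miRNA totals, the L4440 changes of miR-124-3p and miR-228-5p were no longer called (0.44, limma adjusted p = 0.0882, and 0.31, adjusted p = 0.327). Those on dcr-1 RNAi turned to -0.75 (adjusted p = 0.00496) and -0.83 (adjusted p = 0.0114). miR-1-3p kept its direction, at -2.77 and -2.44.

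RNAi against dcr-1, the gene of the enzyme that makes all 3 miRNAs, was not followed by a called fall of any of them in the inputs. As a class, however, miRNAs made up 58.9% to 61.7% of RPM in the dcr-1 RNAi inputs and 67.3% to 73.9% in the L4440 inputs. piRNAs were at 254146 to 267471 RPM and 166920 to 222539 RPM. The cause of this shift was not tested, and RPM, a relative unit, cannot give the absolute level of any miRNA. miR-124-3p was at 113, 112 and 98.2 RPM on dcr-1 RNAi, above all 3 L4440 inputs, but the log2 difference of 0.54 ± 0.24 was not called (limma adjusted p = 0.132), in a comparison that called 3.78% of rows and 18.3% of miRNA rows. Scaled to equal miRNA totals, which removes the lower miRNA share on dcr-1 RNAi, this difference was 0.73 (limma adjusted p = 0.0211). miR-1-3p differed by 0.12 ± 0.18 (adjusted p = 0.584) and miR-228-5p by 0.44 ± 0.31 (adjusted p = 0.275). The difference between the foods in the change from input to co-IP was 0.54 ± 0.26 for miR-1-3p (adjusted p = 0.293), -0.98 ± 0.34 for miR-124-3p (adjusted p = 0.134) and -0.94 ± 0.44 for miR-228-5p (adjusted p = 0.284). None of these was called, where 2.38% of rows and 11.0% of miRNA rows were called. All 3 differences were called without L4440 co-IP replicate 1, at 0.78, -1.33 and -1.29 (limma adjusted p = 0.0113, 0.00221 and 0.0374). That fit called 209 of 2516 rows, against 60 with all libraries. For each of the 3, the other 11 omissions kept the direction and gave no call. The level of DCR-1 itself was not measured in these small RNA libraries.

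A miRNA hairpin yields a duplex, of which an Argonaute usually keeps the strand named here, while the other is discarded. The discarded strands were at low levels in L4 N2 lysates. miR-1-5p made up 0.0327% to 0.0505% of both strands, miR-228-3p 0.229% to 0.251%, and miR-124-5p, at 0.37 to 1.06 RPM, 9.39% to 21.7%. In RDE-1 co-IPs on nrfl-1 RNAi both discarded strands that passed the filter were lower. They passed it through their inputs, which favours a fall, so these changes are a description only. Over both strains miR-1-5p was at 36.44 to 80.65 RPM in the inputs and 4.93 to 11.61 RPM in the co-IPs. For miR-228-3p these ranges were 12.95 to 20.2 RPM and 3.59 to 8.43 RPM. miR-1-5p changed by -2.59 ± 0.37 with wild-type rde-4 and -2.09 ± 0.37 in the mutant (limma adjusted p = 2.76e-05 and 0.000213). miR-228-3p changed by -1.70 ± 0.28 and -1.22 ± 0.28 (adjusted p = 8.49e-05 and 0.00146), opposite to miR-228-5p. Its share of the hairpin was 0.398% to 0.509% in the wild-type inputs and 0.0510% to 0.0820% in the co-IPs. In ALG-1 co-IPs miR-228-3p fell as well, with changes of -0.67 ± 0.25 and -0.85 ± 0.25 (adjusted p = 0.0135 and 0.00256). The ranges of miR-1-5p overlapped there. With wild-type rde-4 it was at 18.08 to 22.14 RPM in the inputs and 17.42 to 25.45 RPM in the co-IPs. In the mutant it was at 16.5 to 21.5 RPM and 19.91 to 24.24 RPM.

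rde-4(syb6665) had more miR-228-3p in L4 larvae (0.48 ± 0.08, limma adjusted p = 0.000968) and in the HA::ALG-1 inputs (0.89 ± 0.25, adjusted p = 0.0392), comparisons in which miR-228-5p was not called. They called 34.6% and 4.56% of rows, and 29.5% and 5.41% of miRNA rows. Elsewhere the mutant range of miR-228-3p overlapped that with wild-type rde-4. In GFP::RDE-1 inputs on nrfl-1 RNAi it was 16.38 to 20.2 against 12.95 to 17.79 RPM. In untagged adults it was 4.15 to 7.6 against 3.61 to 5.55 RPM in N2, and in double RNAi inputs 6.57 to 8.35 against 6.65 to 6.89 RPM. In the L4440 set, miR-1-5p rose in the co-IPs while miR-1-3p fell: 1.31 ± 0.22 on L4440 (adjusted p = 1.36e-06) and 0.68 ± 0.22 on dcr-1 RNAi (adjusted p = 0.00426). Scaled to equal miRNA totals, the first of these was 0.57 (adjusted p = 0.0173) and the second turned to -0.27 (adjusted p = 0.244). Its share of the hairpin was 0.0514% to 0.0703% in the L4440 inputs and 0.492% to 0.740% in the co-IPs. miR-228-3p was at 0.54 to 1.12 RPM in the L4440 co-IPs and at 6.57 to 9.18 RPM in the dcr-1 RNAi co-IPs, which made 2.21% to 3.03% and 23% to 33.0% of the hairpin. It was under the filter there. With no filter the difference between the foods in its change from input to co-IP was 1.35 and was not called (adjusted p = 0.111).

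**Figure D5:**
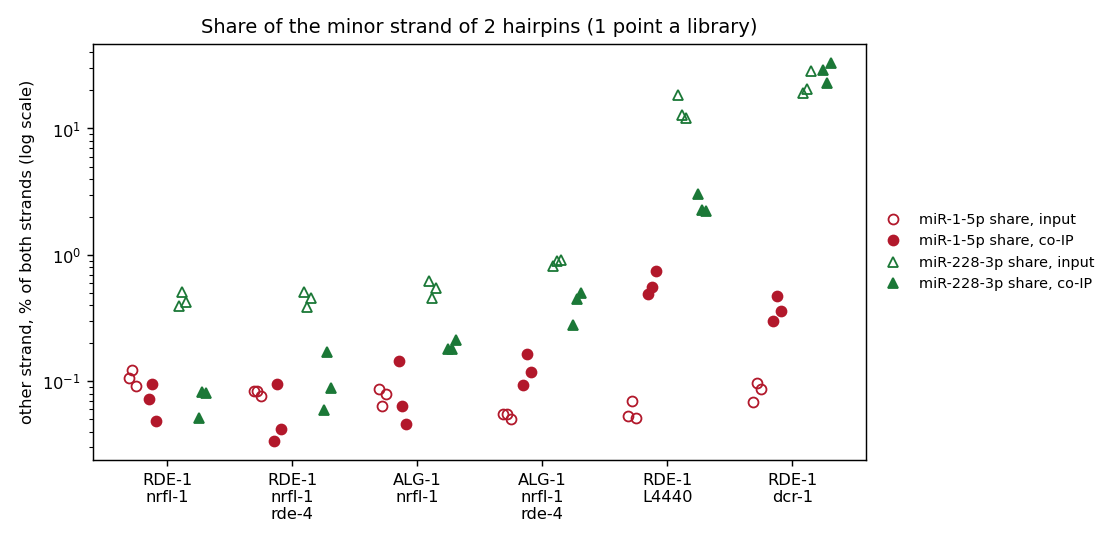
Share of miR-1-5p and miR-228-3p in the RPM of both strands of their hairpin, in percent on a log scale, with 1 point a library and open symbols for inputs. The 6 sets drawn are GFP::RDE-1 and HA::ALG-1 on nrfl-1 RNAi, each with and without rde-4(syb6665), and GFP::RDE-1 on L4440 and on dcr-1 RNAi; the double RNAi sets are not drawn. miR-228-3p shares are lower in co-IPs than in inputs in 5 of these 6, and on dcr-1 RNAi the co-IPs (23% to 33.0%) overlap the inputs (19.2% to 28.4%).

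Other miRNAs known from C. elegans neurons were taken as a list of 6: lsy-6-3p, miR-273-3p, miR-791-3p, miR-790-5p, miR-234-3p and miR-137-3p. Of these, 3 passed the filter in the L4 table and in the GFP::RDE-1 tables of nrfl-1 and of double RNAi, and 2 in the others. In rde-4 L4 larvae 1 of the 3 rose, miR-790-5p (0.48 ± 0.08, limma adjusted p = 0.000813), beside 15.2% of all miRNA rows. In rde-4 adults 1 of 2 rose, again miR-790-5p (0.41 ± 0.09, adjusted p = 0.00697), beside 14.8% of miRNA rows. In RDE-1 co-IPs of animals wild type for rde-4 on nrfl-1 RNAi, miR-791-3p and miR-790-5p rose by 1.89 and 1.33 and miR-234-3p fell by 0.86 on the log2 scale (adjusted p = 6.52e-05, 0.00037 and 0.0458), beside 27.3% of miRNA rows called higher and 46.7% lower. In rde-4(syb6665) 2 of the 3 rose, miR-791-3p by 1.25 and miR-790-5p by 1.09 (limma adjusted p = 0.00204 and 0.00205), beside 24.7% of miRNA rows. There miR-234-3p was at -0.44 (adjusted p = 0.291). The mean of miR-791-3p in the inputs with wild-type rde-4 was under the filter. It was tested only through other libraries of the set, which favours a rise, so its rises in either strain are a description only. All 3 tested members rose in the double RNAi co-IPs of either strain, beside 79.0% and 81.2% of miRNA rows. The mean of miR-791-3p was again under the filter in the inputs with wild-type rde-4. Its rises there, and with them the count of 3, are thus a description only. With scaling to equal miRNA totals miR-234-3p turned to -0.10 and -0.11 and, in the mutant, miR-790-5p to -0.29.

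In ALG-1 co-IPs with wild-type rde-4, 1 of the 2 tested members fell, miR-790-5p by 1.21 (limma adjusted p = 4.69e-06), beside 47.3% of miRNA rows, and miR-234-3p was at -0.06 (adjusted p = 0.766). In the mutant both fell, by 1.27 and 0.66 (adjusted p = 2.39e-06 and 0.00381), beside 57.4%. In RDE-1 co-IPs on L4440, 1 of 2 rose, miR-790-5p by 1.71 (adjusted p = 9.65e-08), beside 40.9% of miRNA rows, and miR-234-3p was at -0.25 (adjusted p = 0.222). On dcr-1 RNAi it was again 1 of 2, miR-790-5p by 1.55 (adjusted p = 5.71e-07), beside 46.3%, with miR-234-3p at 0.23 (adjusted p = 0.263). The mean of miR-790-5p in the L4440 inputs was 7.08 RPM, under the filter. It was tested only through other libraries of the set, which favours a rise, so both its rises are a description only. With scaling to equal miRNA totals miR-234-3p was called lower in wild-type ALG-1 co-IPs (-0.35) and in RDE-1 co-IPs on dcr-1 RNAi (-0.73) and L4440 (-1.0). Between dcr-1 RNAi and L4440 inputs neither was called, beside 18.3% of miRNA rows called in either direction.

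As a description of likeness, the group means of log2(RPM + 1) over all 21 groups were correlated between each of the 3 miRNAs and each of 160 other miRNA rows that averaged 10 RPM or more. These groups share tables, preparations and controls. The rows most like miR-1-3p were miR-259-5p, miR-785-3p and miR-86-5p (Pearson r = 0.847, 0.843 and 0.797). Those most like miR-124-3p were miR-2-3p, miR-87-3p and miR-251 (0.962, 0.962 and 0.959), and those most like miR-228-5p were miR-73-3p, miR-48-5p and miR-359 (0.953, 0.911 and 0.905). Among themselves, miR-124-3p and miR-228-5p had r = -0.825 over the 21 groups and 0.300 over the 17 groups outside the L4440 and dcr-1 RNAi set. Without it, the row most like miR-1-3p was miR-52-5p (0.957), that most like miR-124-3p was miR-47-3p (0.940) and that most like miR-228-5p was miR-57-5p (0.927).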

How the data were processed

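Per the series' design text, reads went through tinyRNA; its version, settings, annotation and genome build are not given in the sources used here. The authors deposited RPM (reads per 1000000) with 2 decimals. Columns were matched to samples by name. Among piRNA values up to 1 RPM, 98.6% to 99.9% were whole multiples of 1 read within 0.0051 RPM in 58 of 59 libraries, which gave the depth; over all rows only 83.0% to 95.4% were, so no count test was used.

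limma 3.58.1 (R 4.3.3) was fitted on log2(RPM + 1), 1 fit a table over all its groups, with a mean-variance trend and a Benjamini-Hochberg adjustment over every row averaging 10 RPM or more. Tables were never tested against each other. A pseudocount of 0.1, no filter, equal totals, equal miRNA totals, a replicate block and leaving out each library were tried. The fit was tested on simulated data. Nothing says that replicates came from separate cultures, so p-values may measure technical spread only.

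The 3 miRNAs and the neuron and embryo lists were chosen with earlier results of these data known. Named genes were the 3 miRNAs, their other strands, the 3 rows most like each and these lists, with miR-243-3p. A further part of that rule, miRNAs that share a seed, was not applied. Numbers paired samples only for wild-type GFP::RDE-1 on nrfl-1 RNAi by the correlation of their deviations (0.493, 0.289 and 0.285 between co-IP and input). The values given for that set still come from the fit without pairing. With the replicate block its calls of single miRNAs stayed the same. Versions were Python 3.11.15, pandas 2.3.3 and numpy 2.4.6. The tables for ALG-3 and ERGO-1, which have no miRNA class, were not used here.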

Additional observations from a re-analysis of the deposited data

How the results depend on the processing

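Of the log2 differences of single miRNAs, all 60 kept their direction and side of the threshold, or, where under the filter and so with no test, moved by less than the replicate SD, with a pseudocount of 0.1, 57 of 60 with no filter on low values, 53 of 60 with equal totals, 41 of 60 with equal miRNA totals, 47 of 48 with the replicate block and 365 of 402 with 1 library left out. The cause of the changes below was not tested, except that no filter tests more rows and that scaling sets a new zero: equal totals moved the median of all rows by -0.41 to 0.29 and equal miRNA totals by -1.77 to 0.25. Depth limits miR-124-3p most, at 14 to 45 reads in the lysates of untagged adults.

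With no filter, 3 calls were lost: miR-1-3p in rde-4 adults (-0.20), miR-228-5p in wild-type GFP::RDE-1 co-IPs on nrfl-1 RNAi (0.73) and miR-1-3p in the mutant double RNAi co-IPs (1.09). With equal totals, wild-type double RNAi co-IPs lost miR-228-5p (0.56) and mutant ALG-1 co-IPs gained it (0.46). Signs turned for miR-1-3p between the nrfl-1 RNAi inputs of GFP::RDE-1 (0.046) and in wild-type ALG-1 co-IPs (-0.082), for the strain difference of miR-124-3p in ALG-1 co-IPs (0.25), and in dcr-1 RNAi co-IPs for miR-124-3p (-0.12) and miR-228-5p (-0.23). With equal miRNA totals, calls were lost for miR-1-3p in rde-4 adults (-0.15), miR-228-5p in mutant double RNAi co-IPs (0.022), and miR-124-3p (0.44) and miR-228-5p (0.31) in L4440 co-IPs. Calls were gained for miR-228-5p in mutant ALG-1 co-IPs (0.34) and miR-124-3p between dcr-1 RNAi and L4440 inputs (0.73). Under the same scaling signs turned for miR-228-5p between rde-4 and rde-1 adults (0.10), miR-1-3p between nrfl-1 RNAi inputs of GFP::RDE-1 (0.068), miR-1-3p (-0.92 wild type, -0.78 mutant) and miR-228-5p (-0.54, wild type) in double RNAi co-IPs, and both between double RNAi inputs (0.092 and 0.12). They also turned for miR-1-3p in wild-type ALG-1 co-IPs (-0.17), the strain difference of miR-124-3p there (0.23), and miR-124-3p (-0.75) and miR-228-5p (-0.83) in dcr-1 RNAi co-IPs. The untested changes of miR-124-3p in double RNAi co-IPs moved to 0.27 (wild type) and -0.57 (mutant). The replicate block changed 1 call of a single miRNA, the difference between the foods for miR-124-3p (-0.98, adjusted p = 0.0269). Outside wild-type GFP::RDE-1 on nrfl-1 RNAi, at least 1 same-numbered pair of each comparison correlated at 0.1 or less, except between the double RNAi inputs (0.297). With only 2 pairs, both correlations there are necessarily equal. Samples outside that set were taken to share only a number, which a low correlation cannot show.

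Counts of called rows moved by over 1.5 times as follows. With a pseudocount of 0.1, the count was 18 between ALG-1 inputs, 12 for the difference in enrichment by dcr-1 RNAi and 26 between dcr-1 RNAi and L4440 inputs. With no filter it was 3152 in L4 larvae. For GFP::RDE-1 on nrfl-1 RNAi it was 9391 and 9818 in wild-type and mutant co-IPs, 924 for their difference and 2271 between inputs, and for double RNAi 10664, 8123 and 636. For ALG-1 it was 13543, 13422, 291 and 2787, and in the L4440 and dcr-1 RNAi set 13937, 15701, 21 and 1686. With equal totals the ALG-1 difference gave 12 and the ALG-1 inputs 58. With equal miRNA totals the counts were 833 in L4 larvae, 3566 between rde-4 and rde-1 adults, 10 and 76 for the ALG-1 difference and inputs, and 1412 between dcr-1 RNAi and L4440 inputs. With the replicate block they were 0 and 47 for the ALG-1 difference and inputs (1 and 30 without it) and 139 for the dcr-1 RNAi difference (60 without it).

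Leaving out each library gave ranges of the count of 900 to 1482 in L4 larvae, 1233 to 1931 in rde-4 against N2 adults, 131 to 3402 for the double RNAi difference, 0 to 6 and 17 to 27 for the ALG-1 difference and inputs, and 16 to 209 and 15 to 234 for the dcr-1 RNAi difference and inputs. For miR-1-3p the log2 ranges were -0.11 to 0.026 in rde-1 adults, -0.28 to -0.14 in rde-4 adults, -1.96 to -0.91 in mutant nrfl-1 RNAi co-IPs, -0.25 to 0.32 and -0.21 to 0.13 between nrfl-1 and double RNAi inputs, 0.16 to 1.06 in wild-type double RNAi co-IPs, -0.23 to 0.45 in wild-type ALG-1 co-IPs, 0.17 to 1.22 and 0.025 to 0.93 for the strain difference on nrfl-1 and double RNAi, -1.42 to -0.75 for the ALG-1 difference and 0.27 to 0.78 for the dcr-1 RNAi difference. For miR-124-3p they were -0.27 to 0.11 for the ALG-1 difference, -0.16 to 0.023 between ALG-1 inputs and -1.33 to -0.65 for the dcr-1 RNAi difference. For miR-228-5p they were 0.45 to 0.89 and 0.58 to 1.19 in wild-type and mutant nrfl-1 RNAi co-IPs, -0.15 to 0.46 for their difference, 0.65 to 1.13 for the double RNAi difference, -0.11 to 0.083 between double RNAi inputs, 0.15 to 0.41 in mutant ALG-1 co-IPs, 0.65 to 1.38 in L4440 co-IPs, -0.11 to 0.37 in dcr-1 RNAi co-IPs and -1.29 to -0.56 for their difference. Where 2 libraries a group were reduced to 1, the lone library is assumed to vary like the other groups.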
